A study of Homo sapiens with 12 samples.

Results

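The genes described here are 36 genes of the ATF4 arm of the integrated stress response, out of 60649 gene rows in each deposited table. They were chosen by gene symbol, and all 36 were found by their Ensembl gene ID in both tables and passed the low-count filter in both comparisons. RNA was measured in 12 xenograft tumours of Cal33, a human line of head and neck squamous cell carcinoma, with 3 libraries in each of 4 groups. The smTEADi tumours were treated with SW-682, a small molecule inhibitor of TEAD, and were set against Vehicle tumours. The pTEADi tumours carry a further TEAD inhibitor under a doxycycline switch, labelled DOX+, and were set against Control tumours, labelled DOX-. Doxycycline was thus given to the pTEADi tumours and not to the Control tumours, so the drug and the inhibitor cannot be told apart in that comparison. TEAD proteins are the DNA-binding partners of YAP and TAZ, and the study asked what blocking them does in this cancer. The labels used here give no dose, no time and no host strain. They also leave unsaid whether the inducible line is a clone and whether each library is its own animal, so the p-values below rest on the spread among these samples, which may be technical.

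The integrated stress response begins when one of a small family of kinases phosphorylates the translation factor eIF2, in reply to amino acid shortage, misfolded protein, haem shortage or double-stranded RNA. Most protein synthesis then slows, while the messenger RNA of the transcription factor ATF4 is translated more, so the ATF4 transcript is only part of the measure of its activity. ATF4, often paired with a C/EBP protein, switches on genes that import amino acids, make serine, glycine, proline and asparagine, and charge transfer RNAs. It also switches on factors such as CHOP (DDIT3), ATF3 and TRIB3, and PPP1R15A, which brings the phosphatase that reverses the signal. In tumours these genes are often high where nutrients or oxygen are short, and several of them also answer to MYC, to hypoxia or to interferon.

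Depth was 13576494 to 15433679 expected counts per library, with at least 10 counts for 14536 to 14873 genes. Levels are given as CPM, the counts scaled to equal library totals after TMM normalisation, per library or as mean ± SD over n = 3 libraries. Fold changes are log2 values of the treated group over its own control group ± SE, with the Benjamini-Hochberg adjusted p of edgeR's quasi-likelihood test over all genes, and 0.05 as the threshold for a call. The tissue label was borne out by the squamous keratin and adhesion genes (KRT5, KRT14, KRT6A, KRT17, TP63, EPCAM and CDH1), which summed to 39037 to 56232 CPM in smTEADi, 52684 to 71480.0 in Vehicle, 61527 to 74025 in pTEADi and 63189 to 75891 in Control libraries. Of human genes that mark host cell types, 6 of 11 leukocyte and 5 of 9 fibroblast markers averaged under 10 counts per library. So did 5 of 6 endothelial and 5 of 6 adipocyte markers. Reads were aligned to the human genome, and the handling of mouse reads is not given. These counts therefore do not measure how many host cells were present. The leukocyte genes AIF1, TYROBP and CD163, the fibroblast genes COL3A1 and THY1, the endothelial gene KDR and the adipocyte genes ADIPOQ, LEP, LPL and CIDEC had no count in any library. The 11 leukocyte markers summed to 35.8 to 55.96 CPM in smTEADi, 34.9 to 44.9 in Vehicle, 35.95 to 42.2 in pTEADi and 47.6 to 72.9 in Control libraries, so the pTEADi libraries lay below the Control libraries. The endothelial markers summed to 36.3 to 64.3 CPM in smTEADi, 15.9 to 33.2 in Vehicle, 30.8 to 42.6 in pTEADi and 13.1 to 21.2 in Control libraries. Both treated groups lay above their controls, in a sum that rests mainly on 1 gene. The adipocyte markers summed to 33.7 to 63.8 CPM in smTEADi, 21.5 to 27.9 in Vehicle, 11.3 to 16.5 in pTEADi and 11.8 to 19.9 in Control libraries. The smTEADi libraries lay above the Vehicle libraries, again in a sum that rests mainly on 1 gene. The fibroblast markers summed to 85.5 to 91.6 CPM in smTEADi, 76.7 to 97.1 in Vehicle, 99.7 to 138 in pTEADi and 101.1 to 119 in Control libraries. The part of host cells in the results below was not tested. In bulk tumour RNA, fewer cells of a type and less RNA per cell cannot be told apart.

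The DNA element through which ATF4 and C/EBP proteins act on many of these genes is the C/EBP-ATF response element. Its core letters stand in at least 1 promoter window of 11 of the genes. The search was for TGATGNAA, where N is any base, on both strands, in RefSeq promoter windows that run from 250 bases before a start site to 50 bases after it (build GRCh38.p14). Windows were held for 30 of the 36 genes, and 36.7% of those had the core in at least 1 window, against 2.69% of 10856 genes with windows among all genes tested with pTEADi. Counted by window, the share was 22.9% of 48 windows of these genes and 3.62% of all 35116 windows. Each of the 11 genes had the core in only 1 window. ASNS, ATF3, CARS1, CEBPG and GARS1 have 2 windows, and SLC1A5 and SLC3A2 have 3. The SLC1A5 match is in the window of a start site inside the gene, whose 5′ end is at 46788594. The genes were chosen as genes of the ATF4 arm, so a high share of this element is not an independent result. The matches are shown because they are the sequence that the genes share, each as read on the strand of its gene, 5′ to 3′, with the core in capitals.
ASNS: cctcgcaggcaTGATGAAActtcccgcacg
CHAC1: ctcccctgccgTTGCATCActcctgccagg
AARS1: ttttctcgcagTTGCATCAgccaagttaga
GARS1: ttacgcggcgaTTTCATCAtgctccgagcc
CARS1: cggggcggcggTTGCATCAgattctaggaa
MARS1: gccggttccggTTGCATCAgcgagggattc
NARS1: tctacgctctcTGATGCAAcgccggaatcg
SLC1A5: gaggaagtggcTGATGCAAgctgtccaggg
SLC3A2: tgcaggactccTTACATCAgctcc
ATF3: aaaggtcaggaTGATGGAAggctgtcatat
CEBPG: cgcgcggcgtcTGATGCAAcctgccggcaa
These stretches lie at chr7:97872458-97872487 (ASNS, minus strand), chr15:40953251-40953280 (CHAC1, plus strand), chr16:70289675-70289704 (AARS1, minus strand), chr7:30594834-30594863 (GARS1, plus strand), chr11:3057407-3057436 (CARS1, minus strand), chr12:57488053-57488082 (MARS1, plus strand), chr18:57621804-57621833 (NARS1, minus strand), chr19:46784893-46784922 (SLC1A5, minus strand), chr11:62881725-62881748 (SLC3A2, plus strand), chr1:212565205-212565234 (ATF3, plus strand), and chr19:33374060-33374089 (CEBPG, plus strand). TGATGCAA or its complement TTGCATCA was the form in 7 of the 11 genes. The core began 68 bases before the start site in ASNS and 209 bases before it in CHAC1, and lay after the start site in NARS1 and SLC3A2. A match describes letters in a window and is not a measured binding site. Of the 11 genes with the core, 7 fell with pTEADi and 0 rose, at a median log2 fold change of -0.44. Of the 19 genes whose windows lack it, 9 fell and 1 rose, at a median of -0.45.

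For 2 genes that carry the core and fell with pTEADi, ASNS and CHAC1, the 250 bases before the start site give its surroundings, again 5′ to 3′ on the gene's strand with the core in capitals.
ASNS, chr7:97872409-97872658, minus strand: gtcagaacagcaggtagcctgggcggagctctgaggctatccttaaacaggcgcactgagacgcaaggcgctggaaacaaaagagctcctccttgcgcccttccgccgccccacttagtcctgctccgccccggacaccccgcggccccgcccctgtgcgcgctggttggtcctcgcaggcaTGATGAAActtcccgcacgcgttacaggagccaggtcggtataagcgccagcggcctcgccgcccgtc
CHAC1, chr15:40953221-40953470, plus strand: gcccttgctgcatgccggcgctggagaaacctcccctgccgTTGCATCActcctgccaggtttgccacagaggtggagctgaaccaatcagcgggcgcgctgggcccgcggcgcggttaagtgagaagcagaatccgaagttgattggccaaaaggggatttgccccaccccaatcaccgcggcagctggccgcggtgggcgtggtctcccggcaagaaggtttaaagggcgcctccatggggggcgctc
The ASNS core sits close to the start site, and the CHAC1 core sits near the far end of the stretch.

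Levels spread widely among the 36 genes. Per kilobase of the MANE Select transcript, the mean over all 12 libraries was highest for DDIT4 at 313 CPM per kb, SLC7A5 at 277 and SLC3A2 at 220.3. CEBPB (175) and ATF4 (141) came next. The order at the top differed by group: in pTEADi libraries DDIT4 (157 CPM per kb) stood below SLC7A5 (226), SLC3A2 (220.3) and CEBPB (192), and in Control libraries it (525) stood above SLC7A5 (432). At the low end were CHAC1 (2.15), GDF15 (1.58), STC2 (1.29), SLC7A11 (0.645) and ALDH1L2 (0.131 CPM per kb).

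Induced pTEADi was followed by lower RNA of most of these genes. Of 36 genes, 19 fell and 2 rose, while of all 14705 genes tested 13.6% fell and 12.7% rose. The falls were found in each role: stress outputs such as DDIT4 (-1.74) and STC2 (-2.28), the factors ATF3 (-1.41) and TRIB3 (-1.25), the mitochondrial folate enzyme gene MTHFD2 (-1.35), all 4 amino acid transporter genes and 3 of 8 transfer RNA synthetase genes. The median log2 fold change of the genes was -0.44, and that of all genes tested -0.0007. By role, the median was -1.28 for feedback and stress outputs, -0.73 for transporters, -0.48 for amino acid synthesis, -0.24 for synthetases and -0.15 for the factors. The pTEADi and Control libraries did not overlap in 23 of the 36 genes, 20 lower and 3 higher, against 42.0% of all genes tested (21.7% lower and 20.3% higher).

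SW-682 was followed by fewer calls. NUPR1 and PHGDH rose, SHMT2, MTHFD2 and WARS1 fell, and the remaining 31 genes did not pass. These 5 calls among 36 genes compare with 5.5% called among all 14829 genes tested (2.02% higher and 3.48% lower). The median log2 fold change was -0.14 for these genes and 0.01 for all genes tested. The smTEADi and Vehicle libraries did not overlap in 15 of the genes, 11 lower and 4 higher, against 33.0% of all genes tested (17.3% lower and 15.7% higher). None of the 5 calls held without smTEADi 3, Vehicle 1 or Vehicle 3, settings in which 0 of all genes tested were called. The calls of SHMT2 and MTHFD2 were also lost without smTEADi 1 and without smTEADi 2.

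**Figure D1:**
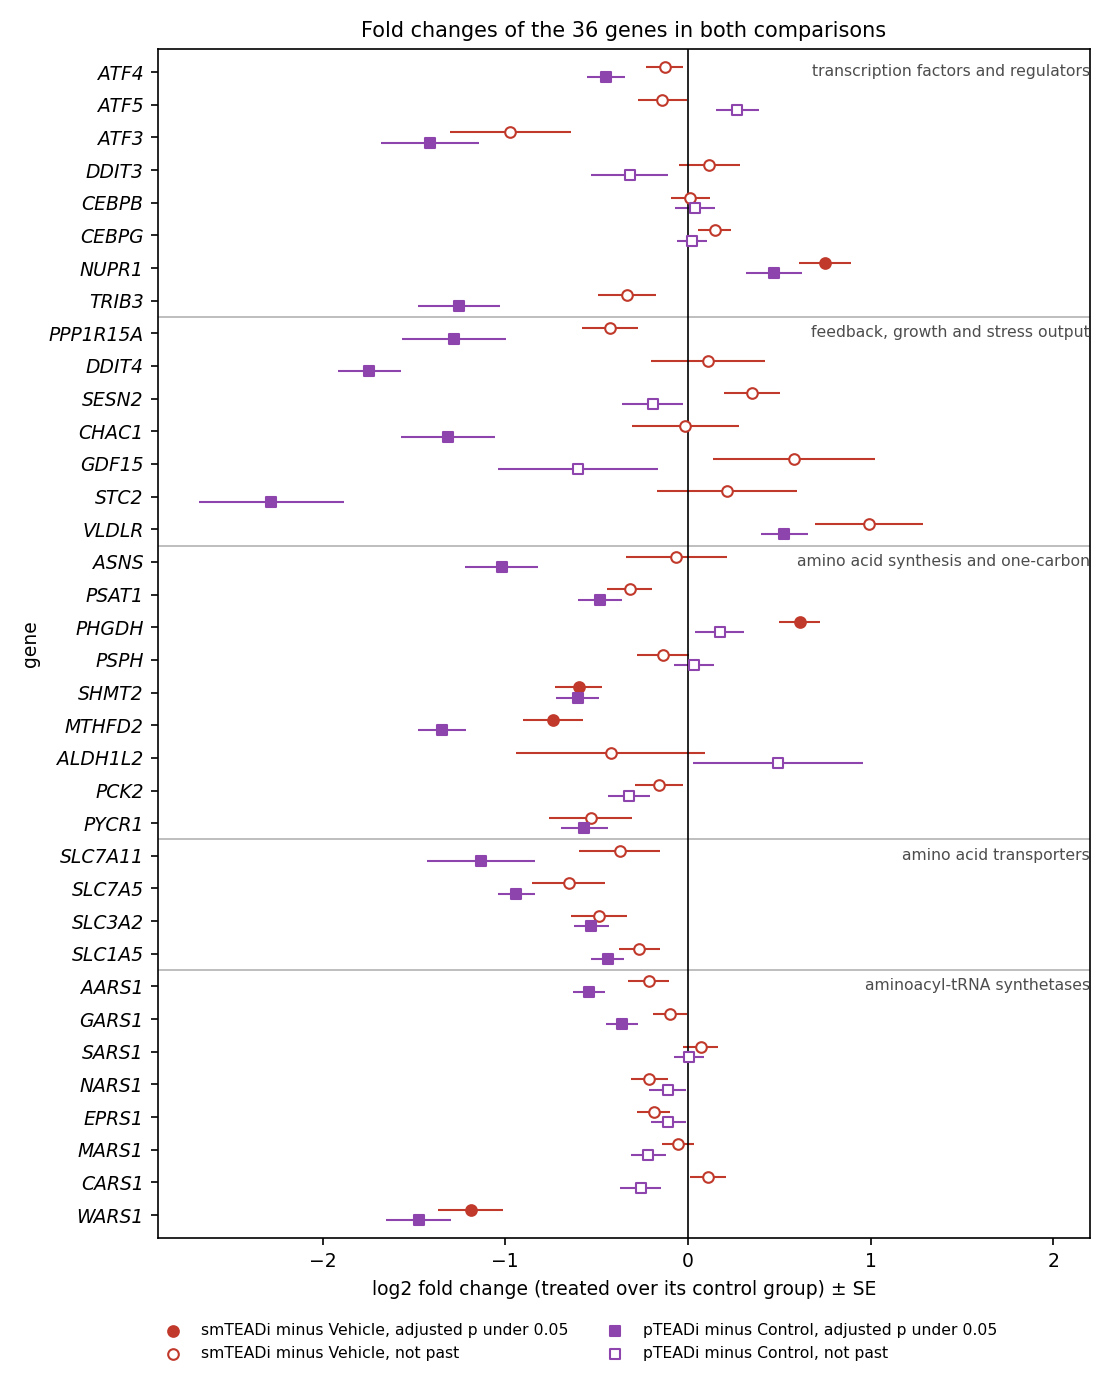
Log2 fold changes ± SE of the 36 genes (rows, grouped by role), for smTEADi over Vehicle (red circles) and pTEADi over Control (purple squares). Filled symbols passed an adjusted p of 0.05: 21 with pTEADi, of which 19 lie left of 0, and 5 with SW-682.

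Among the transcription factors and regulators, ATF4 itself (ENSG00000128272.17, chromosome 22, 39519695 to 39522683, plus strand, GRCh38) had 189.8, 172 and 179 CPM in the pTEADi libraries, against 247, 280.1 and 209.7 CPM in the Control libraries. The highest pTEADi library lay below the lowest Control library, and ATF4 fell modestly, with a log2 fold change of -0.45 ± 0.11 (adjusted p = 0.00879). With SW-682, ATF4 had 187, 187 and 165 CPM in the smTEADi libraries, against 183, 198 and 208 CPM in the Vehicle libraries. These groups overlapped, at -0.13 ± 0.10 (adjusted p = 0.438).
ATF3, a stress-induced repressor and activator, had 10.2, 6.95 and 7.699 CPM in the pTEADi libraries, against 17.1, 33.4 and 15.7 CPM in the Control libraries. It fell by more than ATF4, at -1.41 ± 0.27 (adjusted p = 0.00269). With SW-682 it had 9.65, 7.36 and 3.76 CPM in the smTEADi libraries, against 11.8, 10.3 and 18.7 CPM in the Vehicle libraries. The smTEADi libraries all lay below the Vehicle libraries, yet the spread within each group was wide and the change did not pass by edgeR, at -0.97 ± 0.33 (adjusted p = 0.0991), while it was called lower by DESeq2 (adjusted p = 0.0229) and without the low-count filter (adjusted p = 0.00872). TRIB3, a pseudokinase that is switched on by ATF4 and CHOP and restrains them, had 30.8, 27.9 and 25.6 CPM in the pTEADi libraries, against 49.9, 99.1 and 51.6 CPM in the Control libraries. Control 2 was far above the other Control libraries for TRIB3, which fell at -1.25 ± 0.22 (adjusted p = 0.00175). Its SW-682 value did not pass, at -0.33 ± 0.16 (adjusted p = 0.204).

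NUPR1, a small stress-induced chromatin protein gene, was the one gene called higher in both comparisons. It had 67.3, 66.4 and 61.5 CPM in the pTEADi libraries, against 51.9, 55.2 and 33.4 CPM in the Control libraries, with a log2 fold change of 0.47 ± 0.15 (adjusted p = 0.0381), or 0.28 without Control 3, its lowest library. With SW-682 it had 67.2, 51.05 and 56.1 CPM in the smTEADi libraries, against 34.2, 39.9 and 29.4 CPM in the Vehicle libraries, and rose at 0.75 ± 0.14 (adjusted p = 0.0365). Its counts were not whole numbers in any of the 12 libraries, as RSEM gives where reads are shared with other loci. The rise with pTEADi did not pass without Control 1 or without any 1 of the pTEADi libraries, nor with the spread shared by all 4 groups.

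DDIT3, which encodes the stress factor CHOP, did not pass in either comparison. It averaged 11.5 ± 1.06 CPM in pTEADi and 14.4 ± 4.58 CPM in Control, a log2 fold change of -0.32 ± 0.21 (adjusted p = 0.296), and 10.4 ± 0.484 CPM in smTEADi and 9.55 ± 1.68 CPM in Vehicle, a change of 0.12 ± 0.17 (adjusted p = 0.683). Without Control 3, its lowest Control library, DDIT3 was called lower with pTEADi, at -0.55 (adjusted p = 0.014). The DDIT3 gene overlaps MARS1 by 982 bases and MBD6 by 1028 bases on the opposite strand. MARS1 had 87.5 and MBD6 80.7 CPM on average, more reads than DDIT3, and the labels do not say whether reads were counted by strand, so reads of these genes cannot be told apart with certainty. ATF5, a relative of ATF4 that acts in mitochondrial stress, averaged 24.1 ± 2.601 CPM in pTEADi and 19.99 ± 1.15 CPM in Control, without overlap between the groups, and did not pass at 0.27 ± 0.12 (adjusted p = 0.115). It overlaps NUP62 by 1063 bases on the opposite strand. For the C/EBP partner genes the log2 values were near 0. CEBPB averaged 354 ± 28.1 CPM in pTEADi and 344 ± 45.5 CPM in Control (0.04), and CEBPG 55.1 ± 0.817 CPM in pTEADi and 54.2 ± 0.834 CPM in Control (0.02). Neither passed there or with SW-682 (0.01 for CEBPB and 0.15 for CEBPG).

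**Figure D2:**
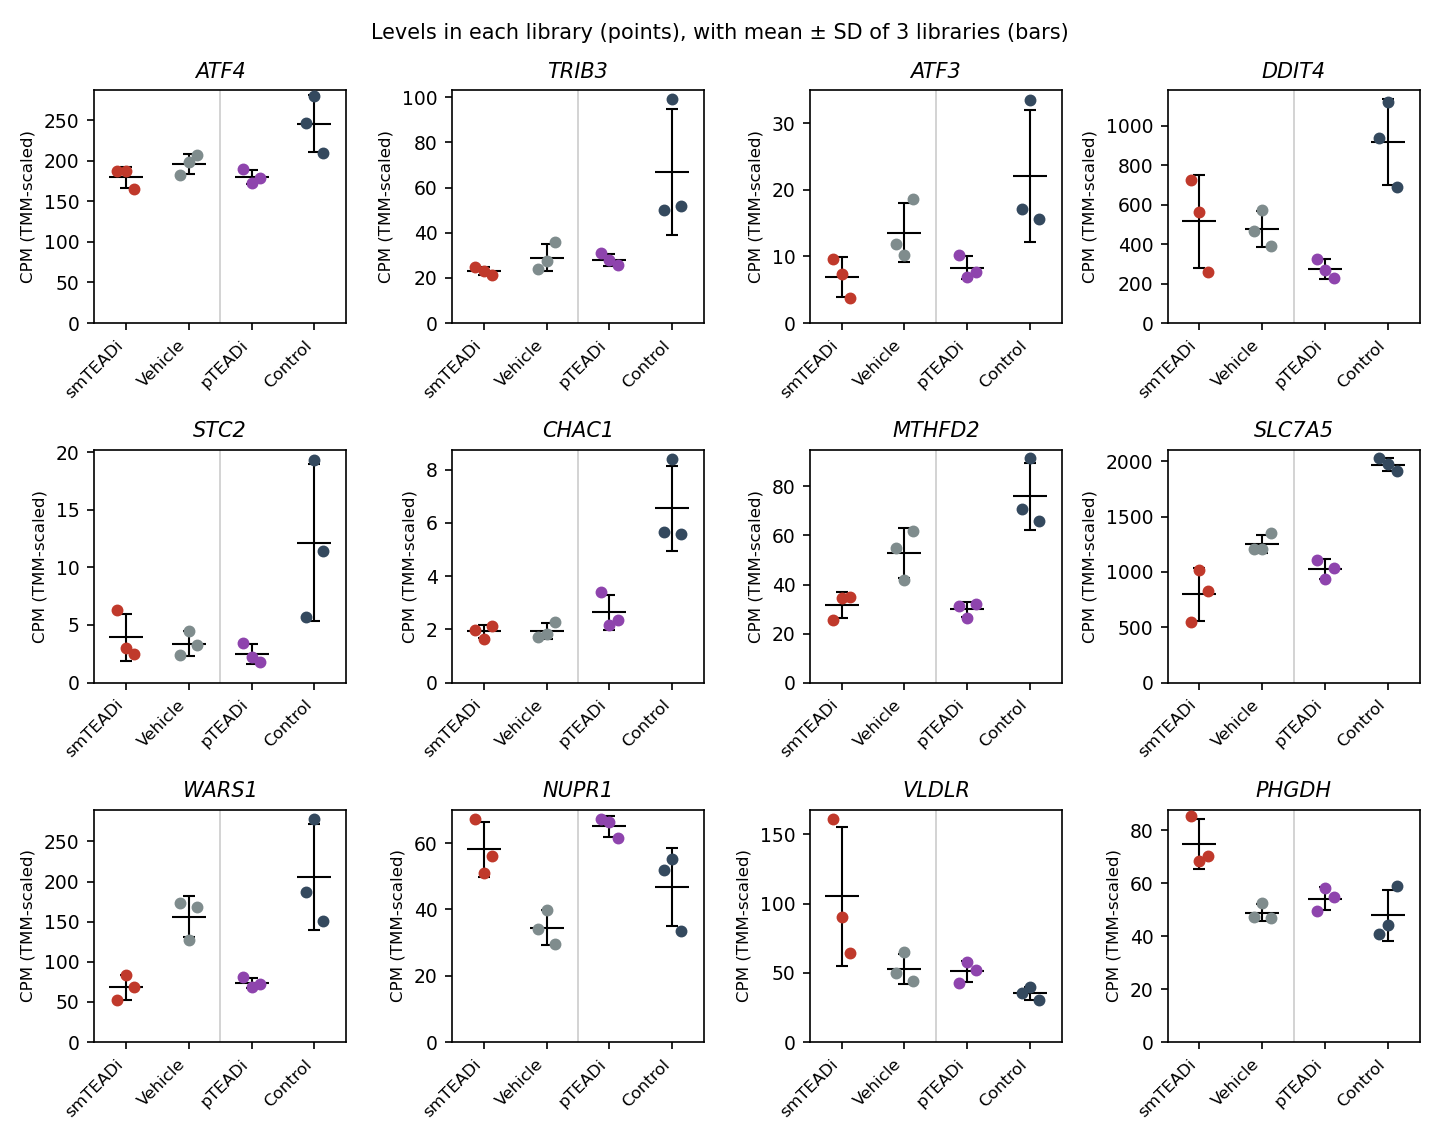
CPM per library (points) and mean ± SD of 3 libraries (bars) for 12 of the genes, in the order smTEADi, Vehicle, pTEADi and Control. DDIT4 runs from 227 to 324 CPM in pTEADi libraries, below the Control libraries at 689 to 1122, while NUPR1 lies higher in both treated groups than in their controls.

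Of the feedback and stress output genes, 4 fell with pTEADi and VLDLR rose. None of the 7 passed edgeR's test with SW-682, where 3 had an unadjusted p under 0.05, and DESeq2 called none. DDIT4, which encodes REDD1, an inhibitor of the growth kinase complex mTORC1 (ENSG00000168209.6, chromosome 10, 72273919 to 72276036, plus strand), had 324, 269.7 and 227 CPM in the pTEADi libraries, against 935, 1122 and 689 CPM in the Control libraries. No pTEADi library came near the lowest Control library, and the log2 fold change was -1.74 ± 0.17 (adjusted p = 5.27e-05), a 3.35-fold fall. With SW-682, DDIT4 had 725, 562 and 257 CPM in the smTEADi libraries, against 468, 572 and 389 CPM in the Vehicle libraries. The smTEADi libraries lay both above and below all Vehicle libraries, at 0.11 ± 0.31 (adjusted p = 0.845).

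DDIT4 is also a textbook hypoxia gene, and its level moved with a list of 20 other hypoxia genes. These summed to 5626, 5616 and 5276 CPM in the pTEADi libraries, against 9715, 10445 and 7415 CPM in the Control libraries. Of the 20, 14 fell with pTEADi and 0 rose, led by CA9 (-2.65 ± 0.18), a hypoxia-induced carbonic anhydrase gene. With SW-682 the sums were 11390.0, 8839 and 4796 CPM, against 6992, 8819 and 6829.6 CPM with Vehicle, and none of the 20 passed edgeR's test (2 had an unadjusted p under 0.05). Within each of the 4 groups, the 3 libraries had the same order for DDIT4 as for this sum. The part of hypoxia in the fall of DDIT4 was not tested.

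**Figure D3:**
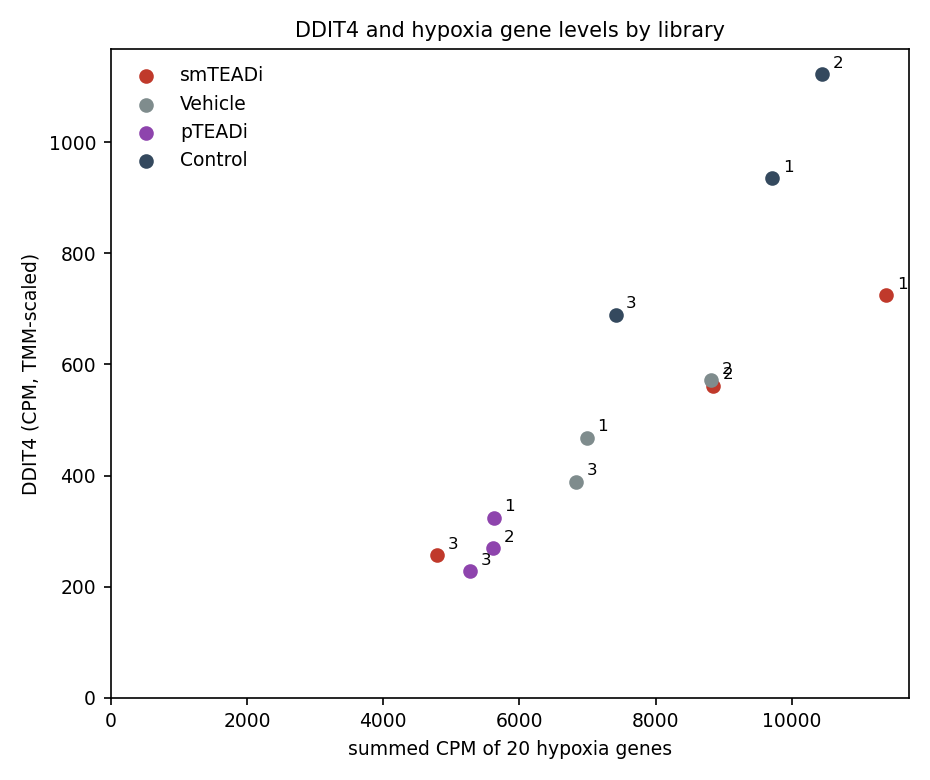
DDIT4 level (CPM) against the summed CPM of 20 hypoxia genes, 1 point per library, with the replicate number beside it and the group by colour. smTEADi 3 and the 3 pTEADi libraries sit at the low end on both axes, and Control 1, Control 2 and smTEADi 1 at the high end.

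STC2, a secreted glycoprotein gene of the stress response (ENSG00000113739.11, chromosome 5, 173314723 to 173328447, minus strand), had 3.47, 2.24 and 1.803 CPM in the pTEADi libraries, against 5.73, 19.3 and 11.4 CPM in the Control libraries. Its fall was the steepest of the 36 genes, at -2.28 ± 0.40 (adjusted p = 0.00154), and it rests on 26 to 46 counts per pTEADi library and 82 to 269 per Control library. Without Control 2 the log2 fold change was -1.78. CHAC1, an enzyme that breaks down glutathione, had 3.39, 2.17 and 2.36 CPM in the pTEADi libraries, against 5.66, 8.397 and 5.59 CPM in the Control libraries, and fell at -1.31 ± 0.26 (adjusted p = 0.00322). With SW-682 these genes did not pass, at 0.21 ± 0.38 for STC2 and -0.01 ± 0.29 for CHAC1.
PPP1R15A, which encodes GADD34, the subunit that directs a phosphatase to eIF2, had 21.6, 24.03 and 21.9 CPM in the pTEADi libraries, against 46.6, 87.3 and 30.5 CPM in the Control libraries. Control 2 was the outlying high value, and the fall of -1.28 ± 0.28 (adjusted p = 0.00631) became -0.78 without it. With SW-682 the groups did not overlap, at 30.4, 25.8 and 19.96 CPM in the smTEADi libraries, against 34.4, 32.5 and 35.5 CPM in the Vehicle libraries, and the change did not pass, at -0.43 ± 0.15 (adjusted p = 0.11).

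VLDLR, a lipoprotein receptor gene that ATF4 can induce, went the other way. It had 43.03, 58.1 and 52.02 CPM in the pTEADi libraries, against 35.8, 39.9 and 30.5 CPM in the Control libraries, and rose at 0.53 ± 0.13 (adjusted p = 0.0103). With SW-682 it had 162, 90.1 and 64.5 CPM in the smTEADi libraries, against 49.9, 65.1 and 44.03 CPM in the Vehicle libraries, so that smTEADi 3 lay just under Vehicle 2, and the change of 0.99 ± 0.29 (adjusted p = 0.0714) did not pass. It was called higher with the spread shared by all 4 groups (adjusted p = 0.0215) and without the low-count filter (adjusted p = 0.00104). The remaining outputs did not pass in either comparison. SESN2, which encodes an amino acid sensor that restrains mTORC1, averaged 22.5 ± 1.603 CPM in pTEADi and 25.7 ± 7.01 CPM in Control (-0.19 ± 0.17), and 18.7 ± 3.57 CPM in smTEADi and 14.7 ± 0.465 CPM in Vehicle (0.35 ± 0.16). The secreted factor gene GDF15 averaged 1.94 ± 0.569 CPM in pTEADi and 2.95 ± 1.78 CPM in Control (-0.60 ± 0.44), and 1.63 ± 0.411 CPM in smTEADi and 1.08 ± 0.548 CPM in Vehicle (0.58 ± 0.44), on 7 to 67 counts per library.

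In amino acid synthesis and one-carbon metabolism, MTHFD2 and SHMT2 fell in both comparisons, while PHGDH, at the start of the serine pathway, rose with SW-682. MTHFD2, a mitochondrial folate dehydrogenase gene (ENSG00000065911.13, chromosome 2, 74186172 to 74217565, plus strand), had 31.2, 26.4 and 32.1 CPM in the pTEADi libraries, against 70.9, 91.6 and 65.7 CPM in the Control libraries. The groups lay well apart, at -1.35 ± 0.13 (adjusted p = 4.99e-05), a 2.55-fold fall. With SW-682 it had 25.7, 34.4 and 35.01 CPM in the smTEADi libraries, against 54.8, 42.03 and 61.9 CPM in the Vehicle libraries, without overlap, at -0.74 ± 0.17 (adjusted p = 0.0421). SHMT2, which turns serine into glycine in mitochondria and passes on the one-carbon unit, had 118, 103 and 110.1 CPM in the pTEADi libraries, against 161, 198 and 142 CPM in the Control libraries, and fell at -0.60 ± 0.12 (adjusted p = 0.00292). With SW-682 it had 59.2, 73.4 and 73.5 CPM in the smTEADi libraries, against 98.03, 94.9 and 119 CPM in the Vehicle libraries, and fell by nearly the same measure, at -0.60 ± 0.13 (adjusted p = 0.0397). The SHMT2 gene overlaps NDUFA4L2 by 33 bases on the opposite strand.

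Serine is made from a glycolysis product by PHGDH, PSAT1 and PSPH in turn, and their genes are given in that order. PHGDH, the entry enzyme, had 85.6, 68.5 and 70.5 CPM in the smTEADi libraries, against 47.4, 52.5 and 46.9 CPM in the Vehicle libraries, and rose at 0.61 ± 0.11 (adjusted p = 0.0365), with every smTEADi library above every Vehicle library. With pTEADi it averaged 54.2 ± 4.22 CPM in pTEADi and 47.97 ± 9.66 CPM in Control, at 0.17 ± 0.13 (adjusted p = 0.371), and the groups overlapped. Without Control 3, its highest Control library, it was called higher with pTEADi too, at 0.35 (adjusted p = 0.0225). PSAT1, the middle enzyme, had 36.2, 34.9 and 41.8 CPM in the pTEADi libraries, against 44, 55.8 and 57.4 CPM in the Control libraries, and fell at -0.48 ± 0.12 (adjusted p = 0.0121). Its SW-682 value did not pass, at -0.32 ± 0.12 (adjusted p = 0.134), although the groups did not overlap. PSPH, the last enzyme, did not pass in either, at 0.03 ± 0.11 with pTEADi and -0.14 ± 0.14 with SW-682.

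ASNS, which makes asparagine and is a standard readout of ATF4, had 8.14, 5.55 and 6.19 CPM in the pTEADi libraries, against 10.6, 16.4 and 13.2 CPM in the Control libraries. All pTEADi libraries lay below the Control libraries, and ASNS fell at -1.02 ± 0.20 (adjusted p = 0.00323). With SW-682 it averaged 7.13 ± 1.72 CPM in smTEADi and 7.44 ± 2.498 CPM in Vehicle, and did not pass, at -0.06 ± 0.28 (adjusted p = 0.906). PYCR1, which makes proline, had 15.4, 13.1 and 15.2 CPM in the pTEADi libraries, against 19.1, 23.4 and 22.3 CPM in the Control libraries, and fell at -0.57 ± 0.13 (adjusted p = 0.00718). Its change with SW-682 was of like size but did not pass, at -0.53 ± 0.23 (adjusted p = 0.165). PCK2, a mitochondrial enzyme of the path to serine and glucose, averaged 21.7 ± 1.07 CPM in pTEADi and 27.1 ± 2.63 CPM in Control, without overlap, and missed the threshold at -0.32 ± 0.11 (adjusted p = 0.0545). It was called lower without Control 1, at -0.41 (adjusted p = 0.0452), and with upper-quartile scaling, at -0.33 (adjusted p = 0.0464). ALDH1L2, a mitochondrial folate enzyme, had 5 to 22 counts per library, too few for a change to be read (0.49 ± 0.46 with pTEADi and -0.42 ± 0.52 with SW-682).

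All 4 amino acid transporter genes fell with pTEADi. SLC7A5 encodes the light chain of LAT1, the importer of large neutral amino acids, and SLC3A2 encodes the heavy chain that carries it to the membrane. SLC7A5 had 1110.4, 936 and 1039 CPM in the pTEADi libraries, against 2026, 1973 and 1909.9 CPM in the Control libraries. The libraries were tight within each group, and it fell at -0.94 ± 0.10 (adjusted p = 8.51e-05), a 1.92-fold change. SLC3A2 had 456, 386 and 403 CPM in the pTEADi libraries, against 627, 607 and 561 CPM in the Control libraries, and fell by less, at -0.53 ± 0.10 (adjusted p = 0.00192). SLC1A5, a glutamine carrier, had 201, 182 and 187 CPM in the pTEADi libraries, against 239, 280.4 and 253 CPM in the Control libraries, at -0.44 ± 0.09 (adjusted p = 0.004). SLC7A11, which imports cystine for glutathione, had 2.19, 2.099 and 3.45 CPM in the pTEADi libraries, against 3.77, 6.39 and 6.92 CPM in the Control libraries. Per kilobase it had the lowest level of the 4, and it fell at -1.13 ± 0.30 (adjusted p = 0.0146).
With SW-682 none of the 4 passed edgeR's test, and 3 had an unadjusted p under 0.05. The smTEADi libraries lay below the Vehicle libraries for 3 of them. SLC7A5 had 545, 1019.6 and 828 CPM in the smTEADi libraries, against 1206, 1207 and 1348 CPM in the Vehicle libraries, at -0.65 ± 0.20 (adjusted p = 0.0791). SLC3A2 had 205, 311 and 292 CPM in the smTEADi libraries, against 377, 353 and 404 CPM in the Vehicle libraries, at -0.49 ± 0.15 (adjusted p = 0.0843). For both, smTEADi 1 was the lowest library. DESeq2 called SLC7A5 and SLC3A2 lower (adjusted p = 0.00859 and 0.0242). So did edgeR without the low-count filter (adjusted p = 0.00616 and 0.0199) and with the spread shared by all 4 groups (adjusted p = 0.021 and 0.0274).

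Aminoacyl-tRNA synthetases load each amino acid onto its transfer RNA, and 1 of the 8 synthetase genes stood apart. WARS1, the tryptophan enzyme (ENSG00000140105.18, chromosome 14, 100333790 to 100376805, minus strand), had 81.01, 68.7 and 72.5 CPM in the pTEADi libraries, against 188, 278 and 151 CPM in the Control libraries. Every pTEADi library lay far below the Control libraries, at -1.47 ± 0.18 (adjusted p = 0.000187). With SW-682 it had 52.6, 83.6 and 69.1 CPM in the smTEADi libraries, against 173, 127 and 169 CPM in the Vehicle libraries, again without overlap, at -1.19 ± 0.18 (adjusted p = 0.0365). The other 7 members ranged from -0.54 (AARS1) to 0.01 (SARS1) with pTEADi and from -0.21 (AARS1) to 0.11 (CARS1) with SW-682. Over all 20 other cytosolic synthetase genes of both lists, the medians were -0.23 with pTEADi and -0.19 with SW-682. WARS1 is also a textbook interferon-induced gene, and so is EIF2AK2, which encodes the eIF2 kinase PKR. EIF2AK2 fell in both comparisons as well, at -0.74 ± 0.11 (adjusted p = 0.000479) with pTEADi and -0.77 ± 0.16 (adjusted p = 0.0383) with SW-682. The part of interferon in the fall of WARS1 was not tested.

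**Figure D4:**
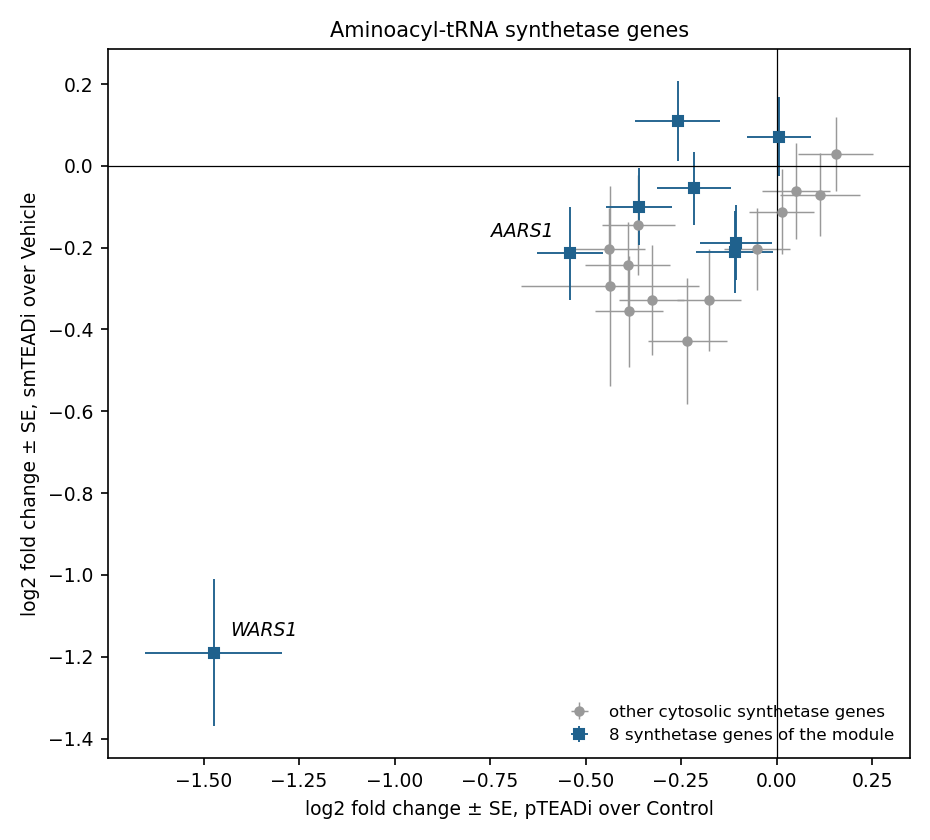
Log2 fold change ± SE of cytosolic aminoacyl-tRNA synthetase genes, pTEADi over Control on the horizontal axis and smTEADi over Vehicle on the vertical axis. WARS1 lies at -1.47 and -1.19, away from the other genes, of which AARS1 at -0.54 is the farthest left.

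Of those 7, AARS1 and GARS1 fell with pTEADi. AARS1, the alanine enzyme, had 78.5, 78.7 and 73.6 CPM in the pTEADi libraries, against 107, 122 and 106 CPM in the Control libraries, at -0.54 ± 0.09 (adjusted p = 0.000957). GARS1, the glycine enzyme, had 127, 124 and 132 CPM in the pTEADi libraries, against 157, 179 and 155 CPM in the Control libraries, at -0.36 ± 0.09 (adjusted p = 0.00978). In both genes the groups did not overlap, and the falls were small beside that of WARS1. SARS1 (0.01 ± 0.08), NARS1 (-0.11 ± 0.10), EPRS1 (-0.11 ± 0.09), MARS1 (-0.22 ± 0.10) and CARS1 (-0.26 ± 0.11) did not pass with pTEADi. None of the 7 passed edgeR's test with SW-682, nor at an unadjusted p under 0.05, and DESeq2 called none.

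**Figure D5:**
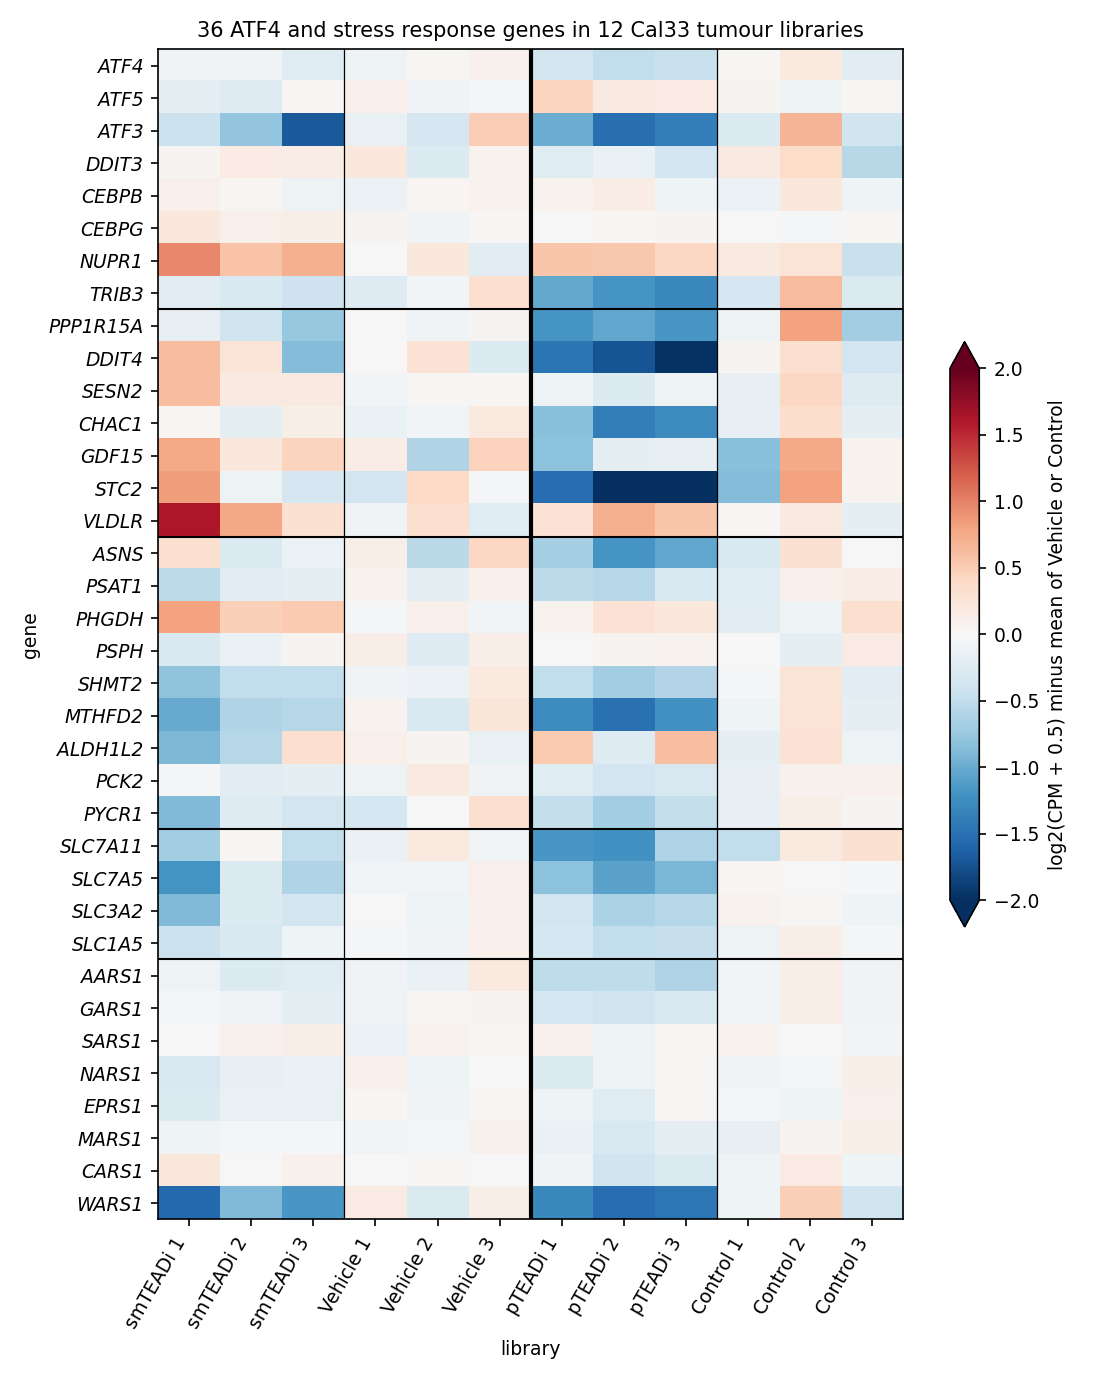
Each cell is log2(CPM + 0.5) of 1 gene (row, grouped by role) in 1 library (column), minus the mean of its Vehicle or Control group, from blue (lower) to red (higher) with the scale ending at 2 in each direction. The 3 pTEADi columns are blue in most rows, and Control 2 is the reddest Control column for ATF3, TRIB3, PPP1R15A and STC2.

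The libraries of a group did not share 1 level. Control 2 was the highest Control library for 24 of the 36 genes, or 66.7%, against 37.4% of all genes tested. It also had the highest sums of hypoxia genes (10445 CPM) and of leukocyte markers (72.9 CPM) among the Control libraries. Without Control 2, 19 of the genes fell and 2 rose with pTEADi. With 1 of the other libraries left out, the number that fell was 15 (without pTEADi 2) to 20. The calls of ATF4, GARS1 and VLDLR were lost without pTEADi 2, those of PSAT1 and SLC7A11 without pTEADi 1 and without pTEADi 2, and that of VLDLR also with the spread shared by all 4 groups. No test was run between the 2 control groups, and their levels are set side by side as a description. The labels do not say whether the Vehicle tumours carry the inducible construct, so the 2 may be different lines. Vehicle and Control means were 28.98 ± 6.13 and 66.9 ± 27.9 CPM for TRIB3, 1.94 ± 0.289 and 6.55 ± 1.602 CPM for CHAC1, and 476 ± 91.9 and 916 ± 217 CPM for DDIT4. Other genes went the other way, such as VLDLR (53.0 ± 10.9 in Vehicle and 35.4 ± 4.69 in Control) and SLC7A11 (9.38 ± 1.23 and 5.69 ± 1.68). Over all 36 genes, the mean of log2(CPM + 0.5) was 5.23 in smTEADi, 5.37 in Vehicle, 5.27 in pTEADi and 5.77 in Control.

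The 2 comparisons share no library, and their fold changes had the same sign in 27 of the 36 genes (75%), against 75.8% of all genes tested in both. Both were negative in 21 of these genes (58.3%), against 37.4% of all genes. A direct test set the effect of pTEADi (over Control) less that of SW-682 (over Vehicle) in a joint model of the 12 libraries. By edgeR none of the 36 genes passed, where 0.0129% of all genes did. At an unadjusted p under 0.05 there were 13 of these genes and 1103 of all 15460. The largest differences were those of STC2, -2.49 ± 0.63 (adjusted p = 0.403), and DDIT4, -1.85 ± 0.41 (adjusted p = 0.286), followed by CHAC1, -1.30 ± 0.37 (adjusted p = 0.503). DESeq2 called STC2 and DDIT4 (adjusted p = 0.0206 for STC2 and 0.0416 for DDIT4), and limma-voom called 0. Without the low-count filter, edgeR called TRIB3, PPP1R15A, DDIT4, STC2 and MTHFD2 lower, among 377 calls over all genes. Without smTEADi 3 it called DDIT4 lower (adjusted p = 0.00969). With the filter and all 12 libraries, a gene that fell with pTEADi only is therefore not shown by edgeR to differ between the inhibitors.

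The wider pathway was followed in lists of genes that were not among the 36, beside a share over all genes of 26.3% called with pTEADi and 5.5% with SW-682. With pTEADi the share called was 26.3% of the eIF2 list, 30% of the leucine zipper factors, 33.3% of the transporters and 33.3% of the mitochondrial unfolded protein response, all near that background. It was 37.5% of the other cytosolic synthetases, 42.1% of the one-carbon list, 58.6% of the reported targets, 70% of the hypoxia genes and 5.88% of the mitochondrial synthetases. Of 19 genes for the eIF2 kinases, eIF2, its exchange factor eIF2B and related regulators, 5 fell and none rose with pTEADi, and EIF2AK2 alone fell with SW-682. Beside EIF2AK2, the eIF2 subunit gene EIF2S3 (-0.36 ± 0.09) and the ribosome recycling gene ABCE1 (-0.41 ± 0.10) fell with pTEADi. Of 20 other leucine zipper factor genes tested, 4 rose and 2 fell with pTEADi, and 1 rose with SW-682. CEBPA, a differentiation factor, rose with both, at 0.85 ± 0.12 and 0.50 ± 0.11, while NFIL3 (-0.55 ± 0.12) and ATF1 (-0.55 ± 0.13) fell with pTEADi. Of 16 other cytosolic synthetase and scaffold genes, 6 fell with pTEADi, first YARS1 (-0.44 ± 0.09), KARS1 (-0.39 ± 0.09) and IARS1 (-0.33 ± 0.09), and 0 passed with SW-682, where 5 had an unadjusted p under 0.05. Of 17 mitochondrial synthetase genes, 1 fell with pTEADi, and MARS2 (-0.40 ± 0.15) and CARS2 (-0.23 ± 0.09) did not pass.

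Of 19 other serine, glycine, proline and one-carbon genes tested, 6 fell and 2 rose with pTEADi, and 2 of 18 fell with SW-682. MTHFD1L, which acts next to MTHFD2 in mitochondrial folate metabolism, fell with pTEADi (-1.35 ± 0.19) and had -1.08 ± 0.27 with SW-682 (adjusted p = 0.0516). Of 15 other amino acid transporter genes, 3 rose and 2 fell with pTEADi. SLC6A14 (1.36 ± 0.25) and SLC6A9 (0.56 ± 0.12) rose, and SLC6A15 fell with both (-0.47 ± 0.10 and -0.67 ± 0.16). Among 29 other genes reported as targets of ATF4 or CHOP, some of which also stand in the hypoxia list, 11 fell and 6 rose with pTEADi, and 3 of 28 fell and 1 rose with SW-682. The death genes PMAIP1 (-2.48 ± 0.33 and -1.52 ± 0.18) and TNFRSF10B (-0.81 ± 0.13 and -0.54 ± 0.10) fell with pTEADi and with SW-682, and TXNIP, an inhibitor of glucose uptake, rose with both (1.71 ± 0.09 and 1.0 ± 0.23). Of 12 genes of the mitochondrial unfolded protein response, 3 fell and 1 rose with pTEADi. The chaperone gene HSPD1 fell with both (-0.73 ± 0.08 and -0.88 ± 0.20), and its partner HSPE1 (-0.38 ± 0.09) and the protease gene AFG3L2 (-0.27 ± 0.08) fell with pTEADi. In the hypoxia list, P4HA1 (-1.13 ± 0.10) and PFKFB3 (-1.22 ± 0.15) fell next to CA9.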

How the data were processed

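Per the labels, poly-T beads drew messenger RNA from total RNA of 12 tumours, and libraries were read in pairs of 150 bp. Per the series' design text and the submitters' processing notes, alignment was by STAR 2.7.9a on GRCh38 (Gencode 38), and the authors deposited expected counts per gene from RSEM 1.3.1, with no scaling. Strand setting and the handling of mouse reads are not given in the sources used here.

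Expected counts were rounded and tested per table with edgeR 4.0.16 in R 4.3.3 (filterByExpr at a minimum count of 10, TMM, two-sided quasi-likelihood F test, Benjamini-Hochberg over all genes). The difference of effects used 1 fit of all 12 libraries. The SE was taken as the size of the log2 fold change over the root of F. CPM use TMM factors over 12 libraries. Symbols, positions and MANE Select lengths came from Gencode 44 (GRCh38), promoter windows from RefSeq. A total of 1 gene of the companion lists had no row by symbol. Fits were tested on simulated data. The members, lists and the rule for named genes (per-library values for ATF4, the members past a threshold and the 3 with the highest level per length, up to 3 genes of each companion list with the smallest p, and the 5 genes most like ATF4) were chosen with earlier results of these data known. Some genes that the rule names are not reported here. Alternatives were other scalings, no filter, DESeq2 1.42.0, limma-voom (3.58.1), a replicate block, a spread shared by 4 groups and leaving out each library.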

Additional observations from a re-analysis of the deposited data

How the results depend on the processing

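Under RLE and upper-quartile scaling and limma-voom, the number of the 36 genes called in each direction stayed within 1.5 times that reported for SW-682, pTEADi and the difference. For SW-682, 3 genes fell, 6 without a low-count filter, 6 with DESeq2 and 5 with the spread shared by 4 groups. Over all genes, the 816 SW-682 calls became 2101, 1893 and 2303 in the same order. With the spread shared by 4 groups, 0 of these genes rose with pTEADi. For the difference, 5 of them were called lower without a filter and 2 with DESeq2, among 377 and 43 calls over all genes. Leaving out 1 library at a time gave 0 to 2 higher, 0 to 3 lower and 0 to 1622 calls over all genes for SW-682. For pTEADi the ranges were 0 to 3 higher, 15 to 20 lower and 2325 to 4379 over all genes, and for the difference 0 higher, 0 to 1 lower (DDIT4, without smTEADi 3) and 0 to 20. Without smTEADi 1 and Vehicle 2, a setting chosen after seeing the data, 7 of these genes fell and 3 rose with SW-682, of 2073 calls. With a replicate block, SW-682 had 0 higher and 0 lower of these genes and 0 calls in all, and the difference 0 calls, while pTEADi kept 19 lower and 2 higher. The labels do not say whether the numbers mark pairs. The deviations of same-numbered libraries correlated at -0.17 to 0.16, and smTEADi 1 correlated best with Vehicle 2 (0.33). With 3 libraries per group, these values cannot settle whether libraries were paired. No called gene changed sign under any of these alternatives. The causes of these shifts were not tested. Depth limits ALDH1L2, GDF15, STC2 and CHAC1, which have the fewest counts.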

Other observations

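The genes whose level followed ATF4 most closely from library to library were not in its own pathway list. After log2 CPM was centred within each group, over 12 libraries and 14383 other genes, Pearson's r with ATF4 was among the highest for NME4 (0.987), AVPI1 (0.977), SERTAD1 (0.965) and ITGA5 (0.959). Of the members, GARS1 (0.853, rank 113), PPP1R15A (0.845, rank 129) and ATF3 (0.821, rank 195) came nearest, and PSPH (-0.656) was farthest. The libraries share depth, scaling and the spread of Control 2, and the values are given as a description.

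Other motifs in the RefSeq promoter windows were near their background. CATTCC, the core of the TEAD element, on either strand, was in windows of 5 of 30 genes (16.7%), against 15.1% of genes tested, and TGACGTCA, the cAMP response element, was in that of PPP1R15A alone (3.33%, against 3.74%).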
